A study of Mus musculus with 12 samples.

Results

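The experiment asked how small RNAs of the mouse prefrontal cortex (PFC) stood with and without L-methionine (MET), the essential amino acid from which cells make S-adenosylmethionine, the methyl donor for DNA methylation. All 12 libraries of the series were used: 6 from mice given methionine and 6 from mice not given it. The libraries with methionine were MS (methionine and saline, replicates 3, 4 and 23) and MC (methionine and cocaine, replicates 16, 17 and 20), and those without were SS (saline only, replicates 12, 13 and 14) and CS (cocaine and saline, replicates 8, 9 and 10), so that each arm held 3 libraries with cocaine and 3 without. All mice were labelled C57BL/6, and the study's methods describe adult males that went through conditioned place preference (CPP), a test in which an animal learns to link a chamber with a drug. Methionine was injected under the skin at 1 g/kg (6.6 mmol/kg) 2 times a day for 10 days by the labels, while another passage of the study gives a lower dose, and the tissue was taken 2 h after the last test. Each library was made from RNA pooled from a pair of animals, so differences between single animals were not seen, and whole tissue was used, so fewer cells of a type and less RNA per cell cannot be told apart. Inserts of 18 to 30 nt were read for 50 nt. Reads counted under a miRNA precursor family were therefore pieces of that length and not whole hairpins. Whether they came from precursors or from mature strands was not tested, so they are not independent support for a mature arm.

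MicroRNAs (miRNAs) are short RNAs cut from hairpin precursors, and they guide Argonaute proteins to messenger RNAs that pair with the seed, bases 2 to 8 of the mature strand. miRNAs that share a seed are read as a family because they can bind the same sites. The brain holds miR-124 and miR-9 in abundance, which mark neurons and their progenitors, and the miR-29 family is known for binding the messenger RNAs of DNA methyltransferases and of the TET enzymes that oxidize methylated cytosine.

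The mature sequences on which the results turn are given 5′ to 3′ in RNA letters with the seed in capitals, as RefSeq lists them for GRCm38.p6. The first 9 show miRNAs that share a seed, the next pair comes from opposite strands of 1 locus, and the last had the smallest p of the mature miRNAs:
miR-29a-3p: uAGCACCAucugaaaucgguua
miR-29b-3p: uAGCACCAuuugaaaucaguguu
miR-29c-3p: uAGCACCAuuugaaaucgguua
miR-30c-5p: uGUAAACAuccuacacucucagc
miR-384-5p: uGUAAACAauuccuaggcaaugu
miR-7a-5p: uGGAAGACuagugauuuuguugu
miR-7b-5p: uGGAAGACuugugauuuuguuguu
miR-326-3p: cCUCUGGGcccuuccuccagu
miR-330-5p: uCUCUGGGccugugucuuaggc
miR-129-2-3p: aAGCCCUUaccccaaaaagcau
miR-129b-5p: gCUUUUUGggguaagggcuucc
miR-671-5p: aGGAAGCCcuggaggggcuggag

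miR-29a-3p lies outside any longer gene of the GENCODE M21 annotation (chr6:31062673-31062694, minus strand), and miR-29c-3p (chr1:195037600-195037621, plus strand) in an exon of the non-coding gene A330023F24Rik. The 7a arm is encoded at an intergenic locus of chromosome 7 and in an intron of Hnrnpk on chromosome 13 (chr7:78888295-78888317, plus strand and chr13:58392841-58392863, minus strand), so its reads cannot be assigned to either copy. miR-326-3p lies in an intron of Arrb1 (chr7:99552328-99552348, plus strand), and miR-671-5p in an exon of Chpf2 (chr5:24592132-24592154, plus strand). miR-129-2-3p and miR-129b-5p come from opposite strands of the same place on chromosome 2 (chr2:94241376-94241397, minus strand and chr2:94241378-94241399, plus strand), and 20 consecutive bases of one are the complement of the other. miR-384-5p is encoded on the X chromosome (chrX:105344332-105344354, minus strand).

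The libraries held 7.77 to 11.1 M counts (M, 1000000), 9.67 ± 1.44 M with methionine (SD, n = 6) and 9.12 ± 1.18 M without (n = 6), and the difference in the mean was within the spread between libraries (p = 0.455, two-sided exact permutation test within saline and cocaine libraries). By clustering on the profile of 125 miRNA precursor families the libraries were cut into 3 sets: A (SS 12, CS 8, CS 9), B (SS 13, SS 14, MS 3, MS 4, MS 23, MC 20) and C (CS 10, MC 16, MC 17). The number of sets was chosen beforehand in the clustering and was not tested. Set A held no library with methionine, set B held 4 of 6 and set C 2 of 3, so set A gives no contrast of methionine within itself, while sets B and C each do. MC replicate 16 stood apart: its median Spearman correlation with the other libraries over the tested miRNAs was 0.895, against 0.941 to 0.951 in the other 11, and let-7 miRNAs made up 25.0% of its counts, against 9.08% to 13.8%. The neuron-enriched miRNAs of the marker list summed to 138224 to 288914 CPM (normalized counts scaled to 1000000 per library) with methionine and 151239 to 369942 CPM without, so neuronal miRNAs were abundant in every library.

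In the model with methionine and cocaine as factors, no small RNA was called with methionine at an adjusted p of at most 0.05 in edgeR's quasi-likelihood test. Of 780 mature and predicted miRNAs 0 (0%) were called, of 281 piwi-interacting RNAs (piRNAs) 0 (0%), and of 332 other small RNAs 0 (0%), with smallest adjusted p-values of 0.217, 0.180 and 0.223. At an unadjusted p under 0.05 there were 100 miRNAs (12.8%), 45 piRNAs (16.0%) and 28 other small RNAs (8.43%). Of the 746 mature miRNAs, 94 (12.6%) were under that limit, 59 of them fitted higher with methionine (7.91%) and 35 lower (4.69%), while the median log2 fold change over all 746 was 0.06. In 5 mature miRNAs every library with methionine was above every library without (0.670%), and in 6 every one was below (0.804%). DESeq2 on the same counts called 14 miRNAs (11 higher, 3 lower), and edgeR without MC replicate 16 called 16, all higher. Within library set B alone (2 libraries without methionine, 4 with) 23 were called, 9 higher and 14 lower, and miR-29a-3p was the only miRNA shared by these 3 lists, which together held 42.

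**Figure D1:**
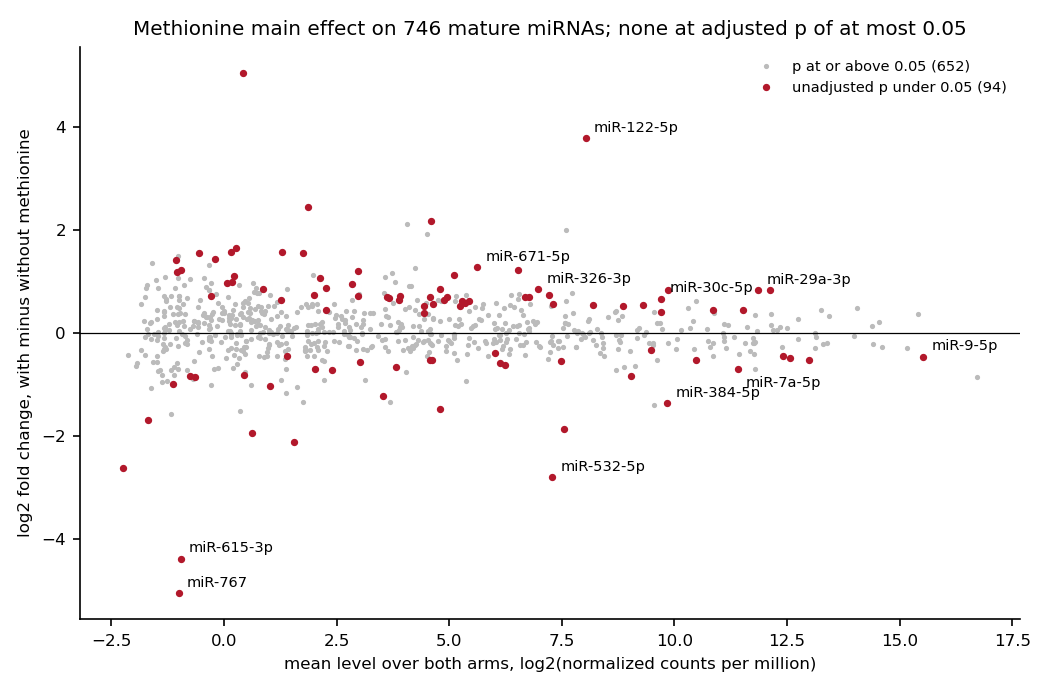
Each point is 1 of the 746 mature miRNAs, plotted by its mean level over both arms (log2 normalized CPM) and its log2 fold change with minus without methionine. The 94 miRNAs with an unadjusted p under 0.05 are in red and lie on both sides of 0, and none passed the adjusted limit.

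Among the mature miRNAs fitted higher, the smallest p-values belonged to miR-671-5p, miR-326-3p, miR-129b-5p and miR-7052-3p. miR-671-5p, which is known for cutting the circular RNA antisense to Cdr1 (CDR1as), had 36.7 to 92.7 (median 70.9) normalized CPM with methionine and 18.6 to 60.0 (median 23.5) without. Only CS replicate 10, at 60.0 CPM, reached the range of the methionine libraries (log2 fold change 1.28, SE 0.29, unadjusted p = 0.000887, adjusted p = 0.217). miR-326-3p ranged over 104 to 196 (median 161) CPM with and 63.4 to 114 (median 91.8) CPM without methionine, where MS replicate 3 with 104 CPM was below SS replicate 13 with 114 CPM (log2 fold change 0.85, SE 0.20, unadjusted p = 0.00113, adjusted p = 0.217). Without MC replicate 16 its log2 fold change was 0.88 with an adjusted p of 0.0338. miR-330-5p has the same seed as miR-326-3p but was at 655 to 1041 (median 865) CPM with and 701 to 1591 (median 906) CPM without, and the groups overlapped throughout (log2 fold change -0.19, SE 0.21, unadjusted p = 0.394, adjusted p = 0.758).

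Neither of the miRNAs from the opposite strands of the Mir129-2 locus overlapped between the arms. miR-129-2-3p, an arm of a brain-enriched hairpin, had 99.8 to 187 (median 129.6) CPM with and 60.1 to 96.3 (median 84.8) CPM without methionine (log2 fold change 0.70, SE 0.19, unadjusted p = 0.0029, adjusted p = 0.246). miR-129b-5p had 6.41 to 12.02 (median 10.2) CPM with and 3.62 to 5.72 (median 5.07) CPM without (log2 fold change 0.95, SE 0.23, unadjusted p = 0.00113, adjusted p = 0.217). The other arm of the miR-129 hairpins, miR-129-5p, was more abundant and overlapped, at 1284 to 5692 (median 1529) CPM with and 1299 to 1922 (median 1542) CPM without, its highest value being MC replicate 16 (log2 fold change 0.39, SE 0.35). miR-494-3p, of the imprinted Dlk1-Dio3 cluster on chromosome 12, had 5.45 to 7.65 (median 5.63) CPM with and 1.88 to 4.63 (median 3.69) CPM without, and miR-361-3p, from an intron of Chm, 0.535 to 0.877 (median 0.768) CPM and 0.187 to 0.441 (median 0.315) CPM. Both were separated between the arms, though miR-361-3p rested on 45 and 16 reads over the 6 libraries of each arm. miR-331-3p, named after its values were seen, was the last of the 5 without overlap on the higher side (log2 fold change 0.67, SE 0.21, unadjusted p = 0.00721, adjusted p = 0.246). miR-7052-3p, from an intron of Josd2, was near the limit of detection with 57 reads with methionine and 17 without (log2 fold change 1.56, SE 0.37, unadjusted p = 0.00125, adjusted p = 0.217). miR-122-5p, the main miRNA of liver, had the largest fold change of the 10 with the smallest p on the higher side (log2 3.79, SE 0.94) and the widest spread, with 8.45 to 2437 (median 121.98) CPM with methionine and 9.63 to 71.1 (median 11.9) CPM without. MS replicate 3 alone held 2437 CPM, and MC replicate 17, with 8.45 CPM, was the lowest of all 12 libraries, and without MS replicate 3 the log2 fold change was 2.42 (adjusted p = 0.244). miR-122-3p, the other arm of that hairpin, had 0.191 to 32.7 (median 1.66) CPM with and 0.260 to 1.69 (median 0.623) CPM without (log2 fold change 2.44, SE 0.87, and 0.84 without MS replicate 3).

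Of the miR-29 family, miR-29a-3p and miR-29c-3p were fitted higher with methionine and miR-29b-3p was near 0, and the members were not tested against each other. miR-29a-3p was at 4584, 6717, 5402 CPM in the MS libraries and 2270.0, 5015, 4656 CPM in MC, against 2381, 1975, 2322 CPM in SS and 2754, 2747, 3905 CPM in CS. Apart from MC replicate 16 every methionine library was above every library without it (log2 fold change 0.83, SE 0.25, unadjusted p = 0.00576, adjusted p = 0.246). miR-29c-3p had the same gap between the arms apart from MC replicate 16, with 449.4 to 1603 (median 1265) CPM with and 503 to 985 (median 629) CPM without (log2 fold change 0.83, SE 0.29, unadjusted p = 0.0134, adjusted p = 0.247). miR-29a-3p and miR-29c-3p are near-identical in sequence and may share reads, so they are not separate observations. miR-29b-3p was at 79.2 to 373 (median 284) CPM with and 198 to 445 (median 257) CPM without (log2 fold change -0.00, SE 0.33), a value whose sign turned under 9 alternatives, 3 of them scalings, with 0.28 without MC replicate 16 (adjusted p = 0.451) and 0.36 within library set B (adjusted p = 0.336). For the other members, the adjusted p without MC replicate 16 was 0.0196 for miR-29a-3p (log2 fold change 1.07) and 0.0196 for miR-29c-3p (log2 1.10), and within library set B the values were 1.34 and 1.40 with adjusted p-values of 0.0217 and 0.0174. Reads assigned to the mir-29 precursor family, which were more numerous than the mature arms, lay the same way: 22631 to 32094 counts per 1000000 of the library total in 5 methionine libraries and 5199 in MC replicate 16, against 12553 to 17629 without methionine. Adding the 7 mature arms to the precursor reads gave 29003 to 42612 in those 5, 7212 in MC replicate 16 and 15205 to 22674 without. On the normalized scale that family had a log2 fold change of 0.61 (SE 0.34, adjusted p = 0.613) in all libraries and of 0.81 (adjusted p = 0.0436) without MC replicate 16.

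The seed of miR-30 was shared by miRNAs that lay in opposite directions. miR-30c-5p, encoded in an intron of Nfyc and at a second locus on chromosome 1, was at 764 to 1324 (median 1061) CPM with and 477 to 809 (median 675) CPM without methionine (log2 fold change 0.67, SE 0.19, unadjusted p = 0.00354, adjusted p = 0.246). miR-30e-5p and miR-30a-5p had log2 fold changes of 0.55 (SE 0.22) and 0.41 (SE 0.17), and miR-30b-5p one of 0.54 (SE 0.21), all with an unadjusted p under 0.05. The mir-30 precursor family was at 256 to 874 (median 678) CPM with and 338.1 to 472 (median 393) CPM without (log2 fold change 0.61, SE 0.27). miR-384-5p, a miRNA of the brain whose seed is the same, was at 125.7 to 1023 (median 433.4) CPM with and 776 to 1644 (median 1375) CPM without, in the opposite direction (log2 fold change -1.36, SE 0.44, unadjusted p = 0.00863, adjusted p = 0.246). Only SS replicate 14, with 776 CPM, lay among the methionine libraries, of which MS replicate 4 was the lowest with 125.7 CPM. Without MC replicate 16, miR-30c-5p and miR-30b-5p had adjusted p-values of 0.032 and 0.0338, and miR-384-5p one of 0.168.

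**Figure D2:**
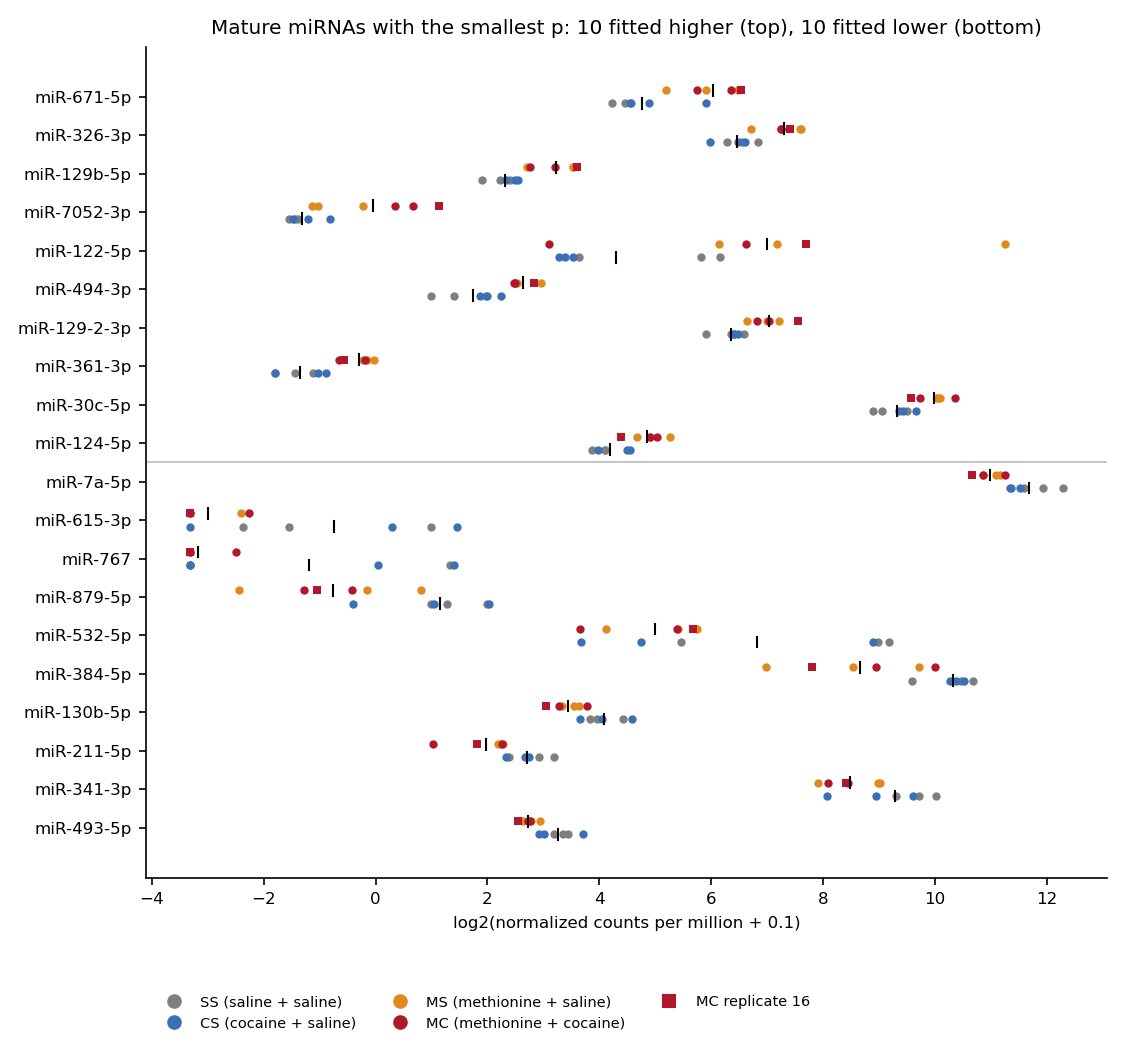
Normalized level of the 10 mature miRNAs fitted higher and the 10 fitted lower with the smallest p, as log2(CPM + 0.1), with the 6 libraries with methionine in the upper row of each miRNA and the 6 without in the lower row; black ticks are means and the square is MC replicate 16. The arms are apart for miR-129b-5p, miR-494-3p, miR-129-2-3p, miR-361-3p, miR-7a-5p and miR-211-5p and overlap for the other 14.

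On the lower side the miR-7 family led, with both mature members lower in every methionine library than in every library without. miR-7a-5p, which is abundant in neurons and binds CDR1as at many sites, was at 2298, 1856, 2187 CPM in MS and 1619.9, 2453, 1874 CPM in MC, against 3107, 3898, 5045 CPM in SS and 2959, 2614, 2621 CPM in CS (log2 fold change -0.69, SE 0.17, unadjusted p = 0.00167, adjusted p = 0.217). miR-7b-5p, named after its values were seen, was at 962 to 1294 (median 1174) CPM with and 1309.9 to 2611 (median 1424) CPM without (log2 fold change -0.53, SE 0.18, unadjusted p = 0.0122, adjusted p = 0.247). The arms did not overlap for either, and the highest libraries of both were SS 13 and SS 14. The mir-7 precursor family lay in the same direction, at 46.2 to 137.4 (median 109) CPM with and 116 to 240.0 (median 186) CPM without (log2 fold change -0.84, SE 0.31, adjusted p = 0.433). Within library set B the log2 fold changes of miR-7a-5p and miR-7b-5p were -1.09 and -0.97 with adjusted p-values of 0.0238 and 0.0404, and without MC replicate 16 they were -0.60 and -0.48 with 0.0613 and 0.146. SS 13 and SS 14, the highest libraries, were the only controls in set B. With library set as a term the values were -0.85 and -0.76, each with an adjusted p of 0.654. The sequences of miR-7a-5p and miR-7b-5p are near-identical, so they may share reads.

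miR-211-5p, from an intron of Trpm1, was at 1.93 to 4.77 (median 4.54) CPM with and 4.95 to 8.99 (median 6.46) CPM without methionine, with no overlap (log2 fold change -0.73, SE 0.24, unadjusted p = 0.00949, adjusted p = 0.246). miR-204-5p, which has the same seed and is abundant in choroid plexus, was at 1009 to 2404 (median 1644) CPM and 1581 to 2277 (median 1978) CPM, which overlapped (log2 fold change -0.27, SE 0.19). The sequences of miR-211-5p and miR-204-5p are near-identical, and miR-211-5p was far less abundant. How reads were split between them is uncertain. miR-532-5p separated the control libraries and not the arms, with 505, 579.7 and 478 CPM in SS 13, SS 14 and CS 9 and 12.6 to 43.7 CPM in the other 3 controls, against 12.5 to 53.5 (median 42.1) CPM with methionine (log2 fold change -2.81, SE 0.89, unadjusted p = 0.00782, adjusted p = 0.246), and without CS replicate 9 the log2 fold change was -1.74. miR-879-5p was at 0.0840 to 1.66 (median 0.512) CPM with and 0.654 to 3.96 (median 2.14) CPM without (log2 fold change -1.94, SE 0.57, unadjusted p = 0.00501, adjusted p = 0.246). Of the Dlk1-Dio3 cluster, miR-341-3p was at 241 to 517 (median 345) CPM with and 269.6 to 1043 (median 706) CPM without (log2 fold change -0.84, SE 0.28) and miR-493-5p at 5.72 to 7.56 (median 6.61) CPM and 7.48 to 12.995 (median 9.56) CPM (log2 -0.56, SE 0.19). miR-130b-5p was at 8.20 to 13.7 (median 10.8) CPM and 12.5 to 23.8 (median 15.98) CPM (log2 fold change -0.66, SE 0.22). Each of these 3 overlapped by at least 1 library. The remaining miRNAs whose arms did not overlap on the lower side, named after their values were seen, were miR-135b-3p (log2 fold change -0.70, SE 0.24), miR-3069-5p (-0.45, SE 0.20) and miR-669b-5p (-0.35, SE 0.17).

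The remaining miRNAs of the leading 10 on the lower side rested on a few libraries. miR-615-3p, from an intron of Hoxc5, had 2 reads in 2 of 6 methionine libraries and 53 reads in 5 of 6 libraries without, a ratio of 29.9 higher without methionine (95% exact interval for counting error only 7.88 to 253), of which 2.64, 1.88 and 1.12 CPM lay in CS 9, SS 12 and CS 8. miR-767, from an intron of Gabra3, had 1 read with methionine and 51 without (ratio 57.5, interval 9.87 to 2316), and all 51 lay in those same 3 libraries. These 3 libraries are set A, which holds no methionine library. With library set as a term in the model the log2 fold change of miR-767 was 1.13, and that of miR-615-3p -1.39. miR-224-5p was likewise at 12.2, 7.95 and 7.27 CPM in set A and at 0.280 to 2.10 CPM in the other 9 libraries (log2 fold change -2.12, SE 0.89, -1.05 without SS replicate 12, and 0.96 with library set as a term). The 3 set A libraries were above the other 9 in 9 of the 35 mature miRNAs fitted lower at an unadjusted p under 0.05. The same held in 30 of 35 such predicted piRNAs and in all 9 such precursor families. Over all tested RNAs it held in 2.68% of mature miRNAs, 15.5% of predicted piRNAs and 23.2% of precursor families. These counts and shares are a description only. The sets were made from the precursor families, and a level high in set A alone is fitted lower by construction. miR-340-3p and miR-330-5p had log2 fold changes of -0.37 (SE 0.22) and -0.19 (SE 0.21).

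**Figure D3:**
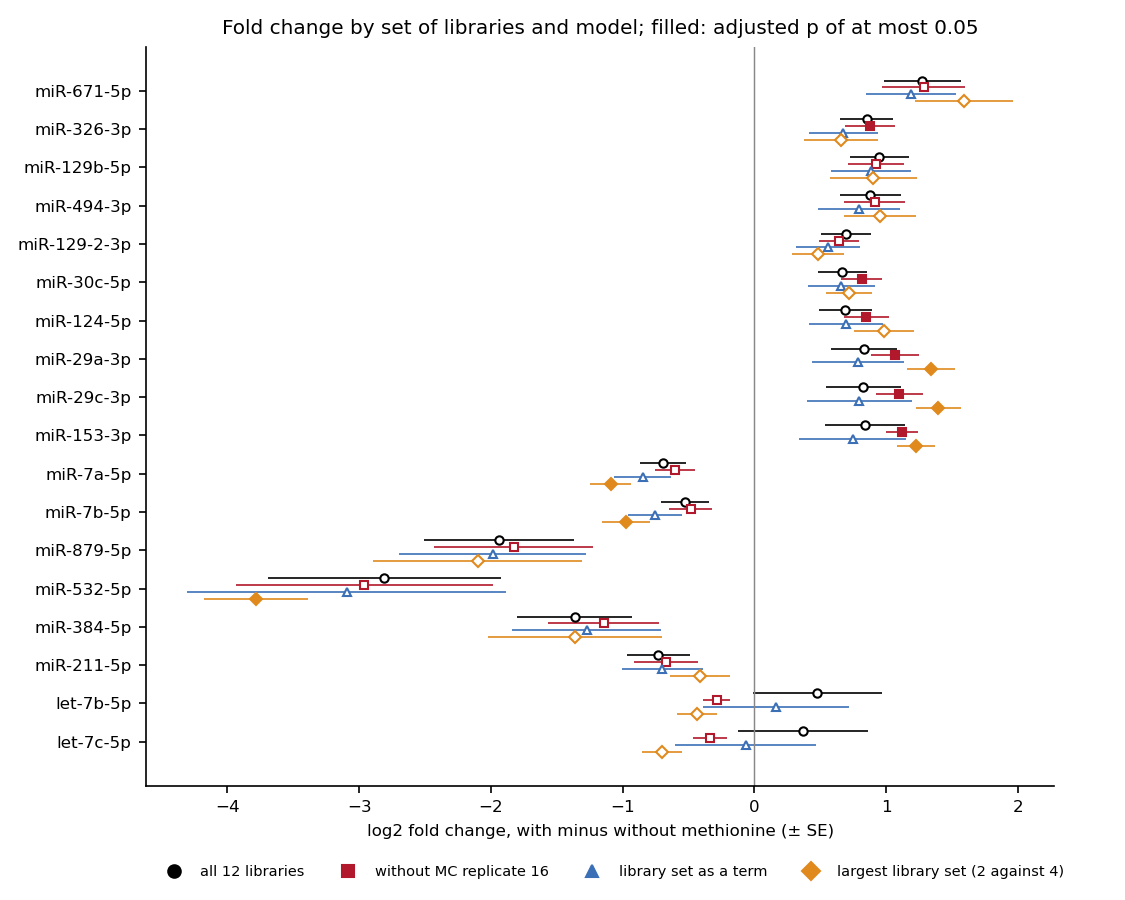
Log2 fold change with minus without methionine (± SE) of 18 mature miRNAs in all 12 libraries, without MC replicate 16, with library set as a term, and within library set B (2 libraries without against 4 with methionine, no cocaine term); filled symbols have an adjusted p of at most 0.05. The direction held in all 4 for the first 16 miRNAs, and let-7b-5p and let-7c-5p were above 0 in all libraries and below 0 without MC replicate 16 and within set B.

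Of the most abundant miRNAs of the tissue, those named here overlapped between the arms. miR-124-3p was at 28216 to 173689 (median 50861) CPM with and 23764 to 213413 (median 153351) CPM without (log2 fold change -0.85, SE 0.53), and miR-9-5p at 22804 to 50948 (median 40241) CPM and 45093 to 63761 (median 52507) CPM (log2 -0.46, SE 0.18, adjusted p = 0.299). miR-124-5p, the minor arm of the same hairpin, lay the other way from miR-124-3p, at 20.8 to 38.6 (median 29.9) CPM with and 14.6 to 23.3 (median 17.1) CPM without (log2 fold change 0.69, SE 0.20, unadjusted p = 0.00517, adjusted p = 0.246). The mir-124 precursor family, at 46796 to 77813 (median 61199) CPM with and 33551 to 60344 (median 46093) CPM without, also had a log2 fold change above 0 (0.43, SE 0.16, adjusted p = 0.433). let-7c-5p had a median of 28403 CPM with and 33534 CPM without, but a higher mean with methionine, and MC replicate 16 alone held 171899 CPM (log2 fold change 0.37, SE 0.49, and -0.34 without it). miR-26a-5p and miR-99a-5p had log2 fold changes of -0.28 (SE 0.14) and -0.28 (SE 0.15). miR-153-3p, a neuronal miRNA named after its values were seen, was at 1546 to 7192 (median 6557) CPM with and 2549 to 3958 (median 3171) CPM without, the single low value being MC replicate 16, and it had the smallest adjusted p without that library (0.000956, log2 fold change 1.12).

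Lists of miRNAs by role gave no called member, and are described by their counts at an unadjusted p under 0.05 (background 12.6% of mature miRNAs) and by their median log2 fold change (0.06 over all mature miRNAs). Among the arms of miR-29, miR-148 and miR-152, families that bind messenger RNAs of DNA methyltransferases, the counts were 2 higher and 0 lower of 10, with a median of 0.07. Both were 3p arms of miR-29. The list also holds the 5p arms of miR-29, which do not carry the seed shown for its 3p arms. let-7 and miR-98, whose main arms share a seed and which increase as cells differentiate, gave 0 higher and 1 lower of 23 arms, 3p arms included (median -0.08). The lower one was miR-98-5p at 584 to 678.6 (median 626) CPM with and 674 to 949.9 (median 747) CPM without (log2 -0.33, SE 0.13). Activity-regulated miRNAs, the group of miR-132 and miR-212, gave 0 higher and 1 lower of 10 (median -0.15), and their most abundant arms miR-132-5p and miR-212-3p had log2 fold changes of -0.20 (SE 0.16) and -0.09 (SE 0.16). The imprinted Dlk1-Dio3 cluster, a large miRNA cluster of placental mammals, gave 5 higher and 5 lower of 98 (median 0.05). Its most abundant arms, miR-127-3p and miR-411-5p, had log2 fold changes of 0.32 (SE 0.30) and -0.35 (SE 0.22), and miR-329-5p was among those higher (log2 0.69, SE 0.21). The miR-200 family, known from epithelia and olfactory neurons, gave 0 higher and 0 lower of 7 (median 0.30), with miR-429-3p at 41.2 to 336 (median 66.1) CPM with and 43.2 to 489 (median 72.0) CPM without, and miR-200a-3p at 13.9 to 177 (median 57.6) and 25.4 to 208.3 (median 36.7). Neuron-enriched miRNAs gave 5 higher and 6 lower of 42 (26.2%, median -0.06).

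Markers of other cells and tissues were counted in the same way, and their part in the results was not tested. Red blood cell miRNAs gave 3 higher and 0 lower of 7 and summed to 762 to 3915 CPM with and 1590.1 to 2599.8 CPM without, their main member miR-451a being at 567 to 3856 (median 2582) CPM and 1541 to 2549.8 (median 2373) CPM. miR-144-3p, from the same cluster, was at 2.48 to 16.8 (median 13.2) CPM with and 3.50 to 8.98 (median 3.74) CPM without (log2 1.21, SE 0.42, adjusted p = 0.0338 without MC replicate 16). The near-identical miR-486b-5p and miR-486a-5p lay in opposite directions (log2 2.18, SE 0.72, and -1.34, SE 0.65), and how reads were split between them is uncertain. Liver and gut miRNAs gave 3 higher and 0 lower of 6 and summed to 176 to 3748 CPM with and 147 to 481 CPM without, and miR-192-5p among them was at 50.6 to 990.1 (median 176) CPM and 118 to 172 (median 135.8) CPM, highest in MS replicate 3, as miR-122-5p was (log2 0.77, SE 0.52, and 0.0820 without that library). Leukocyte and microglial miRNAs gave 1 higher and 1 lower of 12, summing to 4274 to 11213 CPM with and 4614 to 11735 CPM without, with miR-21a-5p at 501 to 7806 (median 1518) and 1425 to 8124 (median 3588) and miR-150-5p at 1423 to 1934 (median 1704) and 294 to 1899.7 (median 1275). The blood-cell miRNA miR-142a-5p was at 1.53 to 8.24 (median 6.44) CPM with and 1.87 to 3.50 (median 3.26) CPM without, and its partner arm miR-142a-3p at 3.43 to 21.5 (median 16.2) and 5.23 to 11.96 (median 9.54), and without MC replicate 16 their adjusted p-values were 0.0196 and 0.0338. Endothelial and vascular wall miRNAs gave 2 higher and 0 lower of 6, with miR-126a-3p at 4114 to 8591 (median 6672) and 6349 to 8523 (median 6919.7) and miR-143-3p at 1149.9 to 4059 (median 3515) and 3118 to 4328 (median 3534). Oligodendrocyte miRNAs gave 0 higher and 0 lower of 7, choroid plexus and ependymal miRNAs 0 higher and 1 lower of 12, and muscle miRNAs 1 higher and 0 lower of 5. miR-219a-2-3p, of oligodendrocytes, ranged over 27.5 to 1269 (median 261) CPM and 28.7 to 767.1 (median 639) CPM, and miR-219a-5p over 109 to 606 (median 489.6) and 249 to 687 (median 447). For miR-34b-3p, of ciliated cells, the ranges were 11.6 to 36.8 (median 25.2) and 18.9 to 30.4 (median 22.9), for miR-1b-5p of muscle 28.4 to 84.1 (median 76.3) and 43.7 to 97.999 (median 68.4), and for miR-499-5p of muscle 13.2 to 43.1 (median 39.8) and 36.4 to 59.8 (median 47.1).

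By class, mature miRNAs took a smaller and precursor families a larger part of the counts with methionine, and neither difference passed after adjustment over the 16 classes. Mature miRNAs held 60.8% ± 3.49 of counts with methionine (SD, n = 6) and 64.4% ± 2.53 without (exact permutation p = 0.05, adjusted p = 0.4). Precursor families held 13.8% ± 2.10 and 11.6% ± 0.455 (exact permutation p = 0.03, adjusted p = 0.4). MC replicate 16 was the one library against this order: at 9.84% it was the lowest of all 12, while the other 5 methionine libraries held 13.5% to 15.8% and the 6 without 11.2% to 12.4%. Without that library the exact p was 0.005, the smallest the 200 arrangements can give, and the adjusted p 0.08. The mir-124 precursor made up 6.10% ± 0.514 of counts with and 4.74% ± 0.543 without, and the mir-29 precursor 2.19% ± 0.889 and 1.48% ± 0.227. All other precursor families together held 5.53% ± 1.27 and 5.41% ± 0.675. Exons held 10.5% ± 3.04 and 9.71% ± 1.09, introns 4.51% ± 0.761 and 4.49% ± 0.305, repeats 4.26% ± 0.888 and 4.87% ± 1.44, and intergenic regions 4.65% ± 0.923 and 3.79% ± 0.944. Known piRNAs held 0.358% ± 0.132 and 0.255% ± 0.107, and predicted piRNAs 0.131% ± 0.0334 and 0.134% ± 0.0202. No class other than mature miRNAs and precursor families had an exact p of 0.05 or less.

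**Figure D4:**
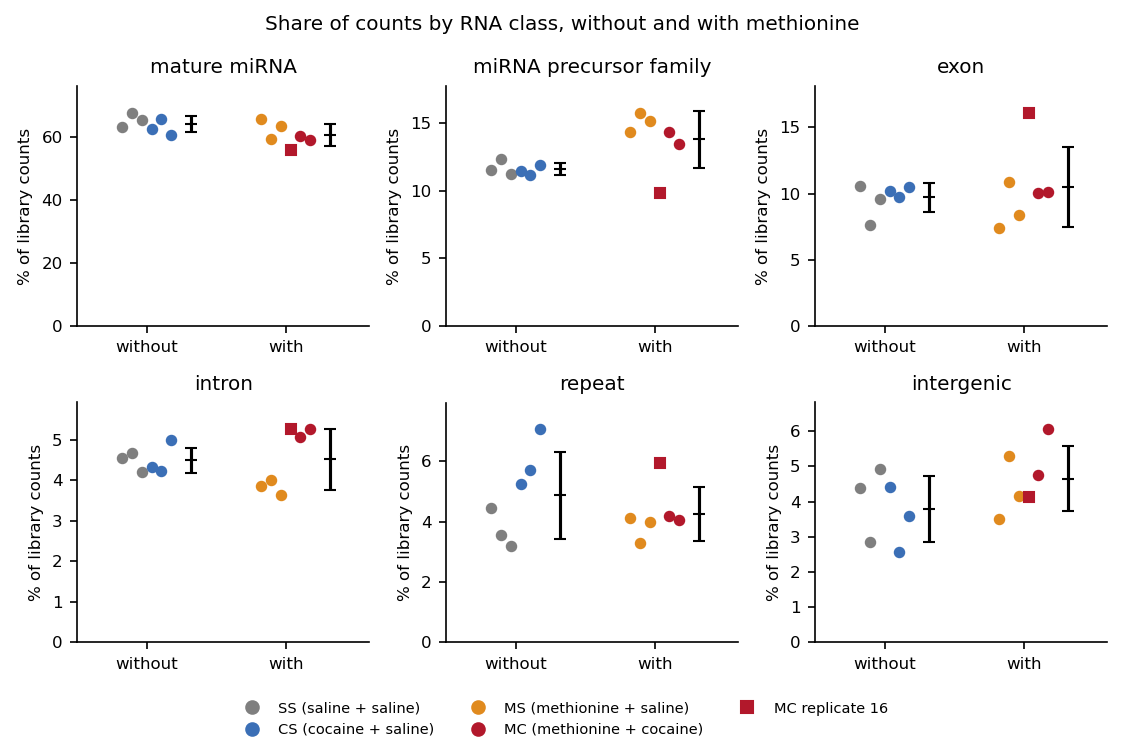
Percent of each library's counts in 6 RNA classes, without and with methionine; points are libraries coloured by group, the square is MC replicate 16, and bars are the mean ± SD of 6 libraries. Precursor families lie at 13.5% to 15.8% in 5 methionine libraries and at 11.2% to 12.4% in the controls, with MC replicate 16 at 9.84%.

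Of 125 precursor families tested, 5 were fitted higher and 9 lower at an unadjusted p under 0.05. The lin-4 precursor family, to which mammalian mir-125 belongs, was at 276 to 2979.5 (median 2047) CPM with and 209.5 to 1693 (median 316) CPM without methionine (log2 fold change 1.52, SE 0.52, unadjusted p = 0.0134, adjusted p = 0.407), with MC 16 and MC 17 among the controls, and its log2 fold change was 0.66 with library set as a term. The mir-671 precursor lay in the direction of its mature arm, at 0.289 to 1.33 (median 0.613) CPM and 0.190 to 0.432 (median 0.248) CPM (log2 1.28, SE 0.45), on 42 and 16 reads. Families on the lower side were high in set A: the mir-344 precursor was at 8.24, 5.23 and 7.77 CPM there and at most 0.809 CPM in the other 9 libraries. The mir-1180 precursor was found in those 3 libraries, at 17.4, 12.3 and 15.8 CPM, and otherwise as 1 read in a methionine library (ratio of reads without to with 439, 95% exact interval for counting error only 78.4 to 17378). With library set as a term the log2 fold changes were -1.08 and 1.30.

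Small nucleolar RNAs (snoRNAs), which guide modification of ribosomal RNA, were fitted higher for 98 and lower for 28, with a median log2 fold change of 0.42 against 0.17 over all 332 RNAs of that table (0.04 with the size factors of DESeq2), and 7 higher and 3 lower had an unadjusted p under 0.05. Their counts were low: SNORD19 (RF00569) had 30 reads with and 9 without methionine (log2 1.79, SE 0.57), and SNORD51 (RF00280) 27 and 1, a ratio of 26.5 (interval 4.37 to 1085). Both passed the count filter through methionine libraries alone. Their direction followed from that filter and is no support for a difference. Lower in the fit were RF01276, listed as a snoRNA, with 2 reads with methionine (ratio of reads without to with 93.7, interval 25.6 to 779.5), and RF01668, named for a small RNA of Pseudomonas, with 6 reads with methionine. Both were high in set A, at 7.35, 5.42 and 6.37 CPM and at 4.34, 3.99 and 5.18 CPM, with at most 0.270 and 0.344 CPM elsewhere. RF01276 and RF01668 passed the filter through control libraries alone, so their direction was likewise fixed. All 10 ribosomal RNA entries had an unadjusted p above 0.05, with 9 of them fitted lower.

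piRNAs guide PIWI proteins and are known for silencing transposable elements in the germline. Predicted piRNAs, which the authors placed at repeat loci, had 42 at an unadjusted p under 0.05, 7 higher and 35 lower, and known piRNAs 3 of 62, all higher. Leaving out SS 12, CS 8 or CS 9 lowered the 45 piRNAs to 17, 26 or 18, and the 28 RNAs of the remaining classes to 12, 19 or 13. Many predicted piRNAs came from the same locus, so they were also summed over the locus, and the loci described were picked after their values were seen. At chrX:21679356-21680794 (mm10) in a LINE/L1 element, 11 of 11 were fitted lower at that limit, and their summed level was 24.8, 21.7 and 21.3 CPM in SS 12, CS 8 and CS 9 with none listed in the other 9 libraries, where listing starts at 10 counts. These members passed the filter through those control libraries alone, so their direction was fixed by construction. Being of the same locus, they are also not 11 separate observations. At chr5:17118211-17118485 in an ERVL-MaLR element, 8 of 15 were fitted lower at that limit, and this locus was listed in every library. Its summed level was 132.6, 114, 119 CPM in MS and 148.3, 145.7, 171 CPM in MC, against 247, 178, 191.8 CPM in SS and 299.8, 298, 183 CPM in CS. Every methionine library was below every library without, with the highest values again in set A. Of its members, novel_pir683 had a log2 fold change of -0.85 (SE 0.24, adjusted p = 0.18, and 0.048 without MC replicate 16) and novel_pir682, named after its values were seen, -0.74 (SE 0.22). novel_pir684 of the same locus was listed in 5 controls at 1.27 to 14.8 CPM and in no methionine library. novel_pir568 and novel_pir580, of an ERVL-MaLR element at chr2:27400951-27402008, were listed in 3 and 4 methionine libraries, highest in MC replicate 16 (8.89 and 4.39 CPM), and in no control. Like novel_pir684, they passed the filter through a single arm, so their direction was fixed by construction. Among known piRNAs, mmu_piR_032865 was at 2.66 to 4.19 (median 3.54) CPM with and 0.752 to 2.94 (median 1.88) CPM without (log2 0.93, SE 0.39) and mmu_piR_033077 at 22.99 to 97.8 (median 29.6) and 15.3 to 30.5 (median 22.9), again highest in MC replicate 16. mmu_piR_039147 and mmu_piR_000414 had 5 and 15 reads with methionine and 40 and 64 without.

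Among the 34 predicted miRNAs tested, 1 was fitted higher and 5 lower at an unadjusted p under 0.05. novel_mir73 was listed in every library, at 1.07 to 1.91 (median 1.34) CPM with and 1.33 to 6.44 (median 3.41) CPM without methionine (log2 fold change -1.36, SE 0.40, unadjusted p = 0.00533, adjusted p = 0.246). Its highest values lay in set A, with 6.44, 5.23 and 4.74 CPM. novel_mir84 was listed in 3 methionine libraries at 0.974 to 1.40 CPM and in no control, novel_mir67 in 3 controls at 1.43 to 3.09 CPM and in no methionine library, and novel_mir7 in 5 methionine libraries and 2 controls. Those listed in a single arm passed the filter through it, so their direction was fixed by construction.

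The methionine contrast was then taken in the saline libraries (MS minus SS) and in the cocaine libraries (MC minus CS), which share no library. Neither called a miRNA (0 of 780 each), and at an unadjusted p under 0.05 there were 74 and 54 of the 746 mature miRNAs. No miRNA was called for the interaction of methionine and cocaine (0 of 780, 0%, smallest adjusted p 0.804). In both contrasts 413 of 746 mature miRNAs had the same sign, a count not tested against that of unrelated contrasts. miR-326-3p had log2 fold changes of 0.79 ± 0.30 (SE) in saline and 0.92 ± 0.30 in cocaine libraries, miR-129-2-3p 0.66 ± 0.28 and 0.74 ± 0.28, and miR-671-5p 1.54 ± 0.42 and 1.02 ± 0.41, with standard errors that overlapped in each of the 3. miR-29a-3p had 1.32 ± 0.30 in saline and 0.34 ± 0.30 in cocaine libraries (interaction unadjusted p = 0.0391, adjusted p = 0.804) and miR-29c-3p 1.35 ± 0.36 and 0.31 ± 0.35, with MC replicate 16 the low library in the second contrast. miR-7a-5p had -0.93 ± 0.23 and -0.46 ± 0.23, and miR-7b-5p -0.77 ± 0.24 and -0.28 ± 0.24. miR-384-5p had -1.52 ± 0.64 and -1.21 ± 0.64, and miR-30c-5p 0.89 ± 0.26 and 0.45 ± 0.25. For precursor families the difference in share was 3.37 percentage points in saline and 1.03 in cocaine libraries, and the latter was 2.38 without MC replicate 16.

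**Figure D5:**
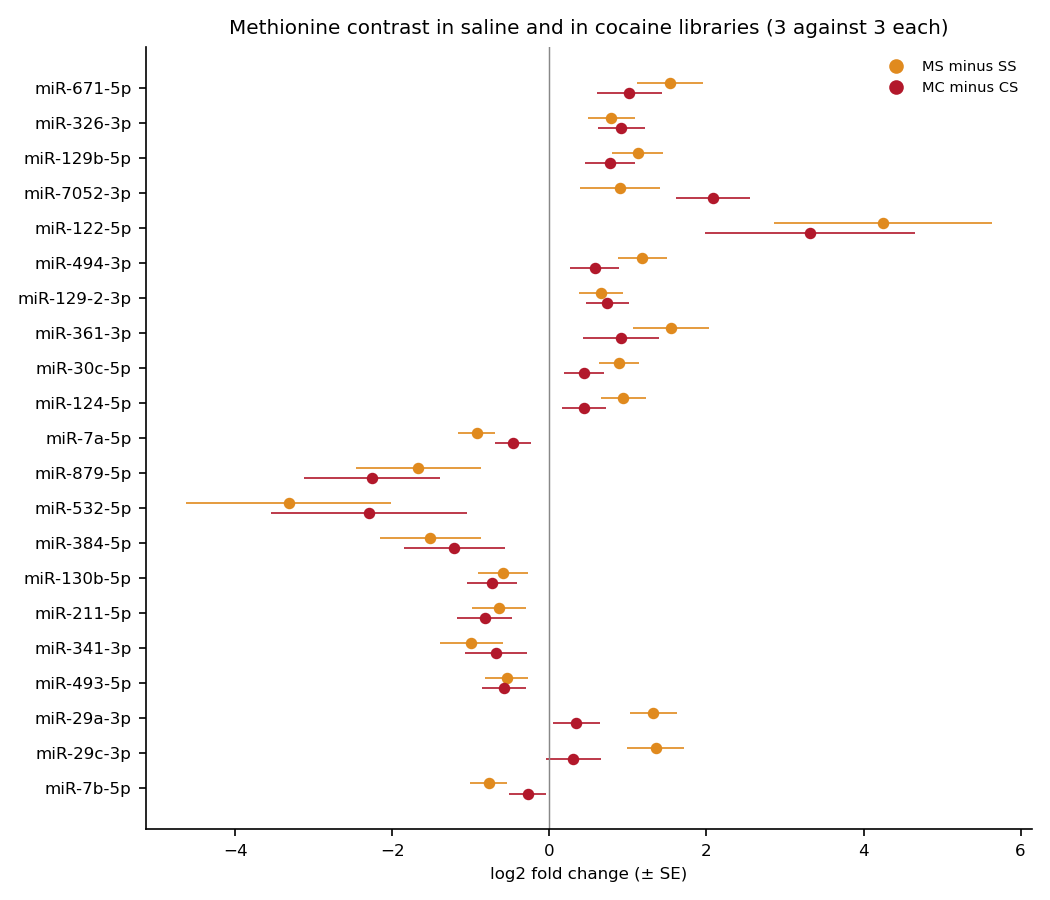
Log2 fold change (± SE) of the methionine contrast in saline libraries (MS minus SS) and in cocaine libraries (MC minus CS), 3 libraries against 3 each, for the leading miRNAs with reads in every library and miR-29a-3p, miR-29c-3p and miR-7b-5p. Both contrasts lie on the same side of 0 for each miRNA shown, and no difference between them passed the adjusted limit. The miRNAs were chosen with the main effect known, and that effect averages both contrasts. A shared side therefore follows largely from the choice and is no independent support.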

How the data were processed

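Small RNA was sequenced from 12 libraries of mouse PFC. Per the labels and the study's methods, the authors trimmed reads, mapped them with AASRA and Bowtie (mm10 is the build in the submitters' processing notes; versions are not given in the sources used here), searched piRBase for piRNAs, and deposited a raw count of reads for each small RNA and a TPM value beside it. The deposited TPM equalled the count divided by the library total times 1000000 and was not used for tests, and counts summed to the total given in the file headers in 12 libraries. Predicted RNAs are listed from 10 counts upward. Replicates were taken as labelled. No 2 libraries agreed within sampling noise, and no label pairs libraries across groups. edgeR 4.0.16 (R 4.3.3) fitted quasi-likelihood models with cocaine and methionine as factors to 3 tables (miRNAs, piRNAs, other small RNAs), with TMM within each table and RNAs of at least 5 counts in at least 3 libraries, and p-values were adjusted by Benjamini-Hochberg over each table and called at 0.05 with no fold limit. The SE is the log2 fold change divided by the square root of F. Shares by class were tested with an exact permutation of methionine within saline and within cocaine libraries (400 arrangements, smallest p 0.005, two-sided). Alternatives were DESeq2 1.42.0, other scalings, filters and models, library set, and each library left out. Fits and share tests within set B took no account of cocaine. Scripts were tested on simulated data. Named miRNAs were the 10 higher and 10 lower with the smallest p, 2 a direction in each other class, the 2 most abundant of each list, the 5 most abundant of all, those the study names, and others said to be added after their values were seen; members, lists and these choices were made with earlier results of these data known, so none is independent support. The added RNAs were miR-7b-5p, 29b-3p, 30a-5p, 30b-5p, miR-30e-5p, miR-98-5p, 101c, 122-3p, 129-5p, 135b-3p, 142a-3p, 142a-5p, 144-3p, 153-3p, 329-5p, 331-3p, 486a-5p, 669b-5p and 3069-5p, novel_pir682 and the mir-7, mir-29, mir-30 and mir-124 precursor families. Near-identical miRNAs may share reads. Sequences are from RefSeq (GRCm38.p6), where 1160 of 1374 mature names matched, and overlapping genes from GENCODE M21.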

Additional observations from a re-analysis of the deposited data

Results flagged for a closer look

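Within the 6 libraries of an arm, the highest or lowest library stood far from the other 5 in 34 of 214 tests of a named RNA or class. MC replicate 16 was that library in 24 of the 34. A single such test passes by chance in about 5% of cases. The 34 cannot be set against that rate, because the RNAs were partly picked after their values were seen and are not independent. Values are normalized CPM, with the range of the other 5 libraries of the arm after each. MC replicate 16 was far below the others for miR-99a-5p (13246 against 22736 to 26518), miR-340-3p (64.9 against 125 to 161), miR-669b-5p (10.7 against 15.6 to 17.6), miR-29b-3p (79.2 against 272 to 373), miR-101c (3.05 against 8.65 to 14.6), miR-153-3p (1546 against 5725 to 7192), miR-142a-5p (1.53 against 5.38 to 8.24), miR-142a-3p (3.43 against 13.2 to 21.5), RF00074 (5083 against 21737 to 30558), RF00053 (46.2 against 93.2 to 137.4), miR-29a-3p (2270.0 against 4584 to 6717), miR-29c-3p (449.4 against 1108 to 1603), miR-411-5p (1227 against 2788 to 3588), miR-451a (567 against 2245 to 3856), miR-143-3p (1149.9 against 3171 to 4059), miR-219a-5p (109 against 447 to 606), miR-499-5p (13.2 against 36.9 to 43.1). It was far above them for let-7c-5p (171899 against 22839.7 to 33402), miR-129-5p (5692 against 1284 to 1661), let-7b-5p (70742 against 8616 to 12473), miR-212-3p (2741 against 1909 to 2170.2), miR-127-3p (26974 against 8323 to 10876), miR-486b-5p (115 against 16.4 to 31.5), and its repeat share was 5.94% against 3.28% to 4.20%. MS replicate 3 was high for miR-122-3p (32.7 against 0.191 to 2.27). Among the libraries without methionine, SS replicate 12 was low for miR-129-2-3p (60.1 against 82.2 to 96.3), SS replicate 14 low for miR-219a-2-3p (28.7 against 469 to 767.1), SS replicate 13 high for miR-126a-3p (8523 against 6349 to 7006) and CS replicate 10 high for miR-429-3p (489 against 43.2 to 94.1). SS replicate 13 had an exon share of 7.62% against 9.62% to 10.6%, and CS replicate 8 a share of known piRNAs of 0.459% against 0.147% to 0.259%. miR-767 in MC replicate 20 (0.0779), RF02024 in MS replicate 23 (0.111) and RF00280 in SS replicate 12 (0.111) were the one library of their arm with a read. The source of these differences was not tested.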

How the results depend on the processing

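None of the 3 counts of main-effect calls held under every alternative. The 0 miRNAs called by edgeR became 14 with DESeq2 and 23 within library set B, and leaving out 1 library gave 0 to 16, the 16 without MC replicate 16. Added after seeing the data, DESeq2 without MC replicate 16 called 46 (33 higher, 13 lower) and library set as a term without it 2 (miR-144-3p and miR-153-3p). For piRNAs the 0 became 4 with DESeq2, 9 with no filter on low counts and 1 within set B, with 0 to 3 when 1 library was left out (1 without CS replicate 10, 3 without MC replicate 16), and for other small RNAs 5, 21 and 0, with 0 to 1 (1 without MC replicate 16). Under the remaining alternatives these counts stayed at 0, as did the interaction under each of its own, and the cause of these differences was not tested. Of 2066 comparisons of the 97 named RNAs, 1948 kept their direction and their side of the limit, 49 passed it, and 69, in 22 RNAs, turned direction. With library set as a term the log2 fold change turned to miR-767 1.13, let-7c-5p -0.0655, miR-224-5p 0.96, miR-330-5p 0.10, miR-29b-3p 0.0967, miR-200a-3p -0.26, miR-21a-5p 0.23, miR-219a-5p 0.62, mmu_piR_039147 0.19, RF02024 1.30, and within set B to novel_mir7 -0.0881, let-7c-5p -0.70, miR-224-5p 1.41, miR-330-5p 0.0464, miR-29b-3p 0.36, miR-129-5p -0.14, let-7b-5p -0.44, miR-429-3p 1.01, miR-127-3p -0.28, miR-21a-5p 1.10, miR-126a-3p 0.0122, miR-219a-5p 0.69, miR-34b-3p 0.0210, exon -0.0510, repeat 0.0468. With library totals in place of TMM it turned to miR-29b-3p 0.14, miR-219a-5p 0.11, miR-34b-3p 0.11, miR-1b-5p 0.0383, with TMM over all classes to miR-29b-3p 0.0301, miR-219a-5p 0.0107, miR-34b-3p 0.00725, with 1 table of all classes to miR-29b-3p 0.0300, miR-219a-5p 0.0106, miR-34b-3p 0.00645, with no filter to miR-29b-3p 0.00963, exon -0.0411, with 10 counts in 6 libraries to miR-29b-3p 0.00633 and with no cocaine term to miR-200a-3p -0.0182. With 1 library left out, values that turned direction in at least 1 case ranged over exon -0.0159 to 0.20, let-7b-5p -0.29 to 0.62, let-7c-5p -0.34 to 0.54, miR-126a-3p -0.18 to 0.0408, miR-129-5p -0.0410 to 0.51, miR-143-3p -0.29 to 0.0346, miR-1b-5p -0.24 to 0.0742, miR-200a-3p -0.48 to 0.72, miR-219a-5p -0.20 to 0.25, miR-29b-3p -0.14 to 0.28, miR-330-5p -0.27 to 0.0177, miR-34b-3p -0.18 to 0.18, miR-429-3p -0.82 to 0.63, miR-451a -0.000705 to 0.44, repeat -0.24 to 0.0363. The difference in share turned on the log2 scale for intron -0.00641, rRNA -0.22, within set B (percentage points) for intron -0.24, other Rfam RNA -0.0752, predicted piRNA 0.00268, rRNA -0.0146, repeat 0.48, and with 1 library left out over a range of exon -0.22 to 1.29, intron -0.0456 to 0.14, predicted piRNA -0.0128 to 0.00545, rRNA -0.0266 to 0.0303. No paired analysis was possible because the groups compared share no replicate numbers. For features with few counts, such as miR-767 or SNORD51, intervals on the ratios cover counting error only.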

Other observations

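The precursor families MIR398, MIR167_1 and mir-166, which carry the names of plant families, were picked after their values were seen. Their summed level was 3812 to 4447 counts per 1000000 of the library total in CS 10, MC 16 and MC 17, and 1.44 to 33.9 in the other 9 libraries, so that libraries with and without methionine lay on both sides. CS 10, MC 16 and MC 17 are library set C. The sets were clustered on precursor families, the class these belong to, so the match with set C is not independent. The origin of these reads was not tested.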
